A study of Drosophila melanogaster with 62 samples.

Results

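The genes described here encode subunits of the 5 complexes of oxidative phosphorylation in Drosophila melanogaster. They were taken by symbol: every row of the count tables whose FlyBase gene has a name beginning with ND-, Sdh followed by A to D, UQCR, COX and a digit, or ATPsyn. This gave 87 of 17753 genes, of which 40 belong by name to complex I, 7 to complex II, 9 to complex III, 16 to complex IV and 15 to complex V. Of the 87, 24 carry the name of another subunit followed by L, which marks a paralog, and 63 do not.

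The study sequenced RNA of embryos depleted of histone acetyltransferases (Nejire, Gcn5 and Enok) or histone deacetylases (HDAC1, HDAC3 and HDAC6), at stage 2 and at stage 5. Total RNA came from 56 samples of 20 hand-sorted embryos, and nuclear RNA with an ERCC spike-in from 6 samples of 300 embryos. The main set held Ctrl-KD controls (T180xN174, a line code from the library names, as are the codes that follow) with Nejire (NI715xN174), Gcn5 (T400xN174), HDAC1 (T341xN174) and HDAC3 (T103xN174) knockdowns, in 3 samples of each group and stage except for 2 of Gcn5 at stage 5. A second set, batch1, held T180xN174 controls (3 samples at stage 2 and 4 at stage 5) with Enok (T337xN174) and HDAC6 (T344xN174) knockdowns in 2 samples each at both stages. Its 7 controls pool 4 libraries named Ctrl-KD and 3 named CtrlAc-KD (replicate 3 of stage 2 and replicates 2 and 3 of stage 5), and what sets CtrlAc apart is not given in the labels. At stage 5 there were also embryos of the Nejire knockdown given wild-type (T6xN546) or catalytic-dead Nejire (T6xN547), and of the Gcn5 knockdown given wild-type (400x540) or catalytic-dead Gcn5 (400x541), in 3 samples each, and nuclear RNA of 3 control samples, named WT, and 3 Nejire knockdown samples. The labels do not say how the knockdown was driven, and since each knockdown was one cross, the knockdown and its line cannot be told apart.

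Oxidative phosphorylation is carried out in the inner mitochondrial membrane. Complex I oxidises NADH and complex II oxidises succinate, both pass electrons to ubiquinone, complex III hands them to cytochrome c, complex IV gives them to oxygen, and complex V (ATP synthase) makes ATP from the proton gradient the others build. Most subunits are encoded in the nucleus and a few in mitochondrial DNA. A Drosophila egg is loaded by its mother with mitochondria and with mRNA, so stage 2 embryos hold maternal transcripts, while at stage 5 the zygotic genome has been activated and part of the maternal mRNA has been cleared. Many of the L-named duplicates are known in adult flies for expression in the testis.

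Library totals were 2.45 M to 40.4 M counts (median 8.91 M) for total RNA and 14.8 M to 20.7 M for nuclear RNA. Levels are given as CPM, counts per M counts of the library after TMM scaling across the 56 total RNA libraries together, while nuclear libraries were scaled to their ERCC counts. The targeted gene was lower in the total RNA of 5 knockdowns at both stages, with log2 fold changes from -9.74 to -1.48 (adjusted p of at most 0.00101). HDAC3 had 0 counts in every library and so gave no check of its knockdown. The drop of nej, the Nejire gene, was not particular to its own knockdown. In CPM, stage 5 nej stood at 173.3 to 323 with Nejire depleted, 256.7 to 407.9 with Gcn5 and 346.2 to 541.4 with HDAC1. It stood at 493.2 to 938.5 CPM with HDAC3 depleted and 681 to 1508 CPM in main controls. At stage 2 its mean was 103.3 CPM with Nejire depleted, 200.9 CPM with Gcn5, 239.7 CPM with HDAC1 and 356.6 CPM in main controls. A panel of 8 zygotic genes rose in 8 of 8 members between stages in both control sets, as the stage labels say. Of all tested genes 42.5% rose in main and 48.9% in batch1 controls. One HDAC6 library has a title giving stage 5 and tissue and source fields giving stage 2. It was kept at stage 5, where the zygotic paralog ND-51L1 stood at 20.6 and 14.9 CPM in the 2 HDAC6 libraries, against at most 1.33 CPM in any stage 2 library. These are whole embryos, in which fewer cells of a type and less RNA per cell cannot be told apart.

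Of the 63 genes without an L name, 61 were tested in every total RNA comparison: 32 of complex I, 4 of complex II, 6 of complex III, 8 of complex IV and 11 of complex V. The remaining pair were ND-MNLL, at 0 in all libraries and with 100% of its exon bases shared with CG45089 on the same strand, and ND-B8, with at most 10 counts in a total RNA library. Of the L-named genes, COX6CL, ATPsynCF6L, COX6AL2, ND-20L, ND-24L and UQCR-14L had no count in total RNA. The 13 protein genes of mitochondrial DNA were listed at 0 throughout, so nothing here covers the mitochondrially encoded subunits. Members lay on every major arm (16 on 2L, 17 on 2R, 20 on 3L, 19 on 3R, 2 on 4 and 13 on X). They were short, with a median exon length of 842 bases against 1734 for protein coding genes. Reads of UQCR-14, whose exons lie wholly opposite CG32576, and of UQCR-6.4, with 40.5% of its exon bases opposite POSH, cannot be assigned to one strand, since the strand setting of the counting is not given in the sources used here.

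Together the 87 genes took about a hundredth of the counts. In main controls their share was 0.965% ± 0.0324 (SD, n = 3) at stage 2 and 0.857% ± 0.132 (n = 3) at stage 5, and in batch1 controls it was 0.876% ± 0.0134 (n = 3) and 0.804% ± 0.0596 (n = 4). The stage 5 main controls spread from 0.711% to 0.966%, and the stages overlapped in both sets. Complex V held the largest part, 0.431% of counts at stage 2 and 0.364% at stage 5 in main controls, followed by complex I with 0.266% and 0.283%. Complex III moved from 0.0979% to 0.0603% and complex II from 0.0467% to 0.0281%. Complex IV stood at 0.123% and 0.122%.

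**Figure D1:**
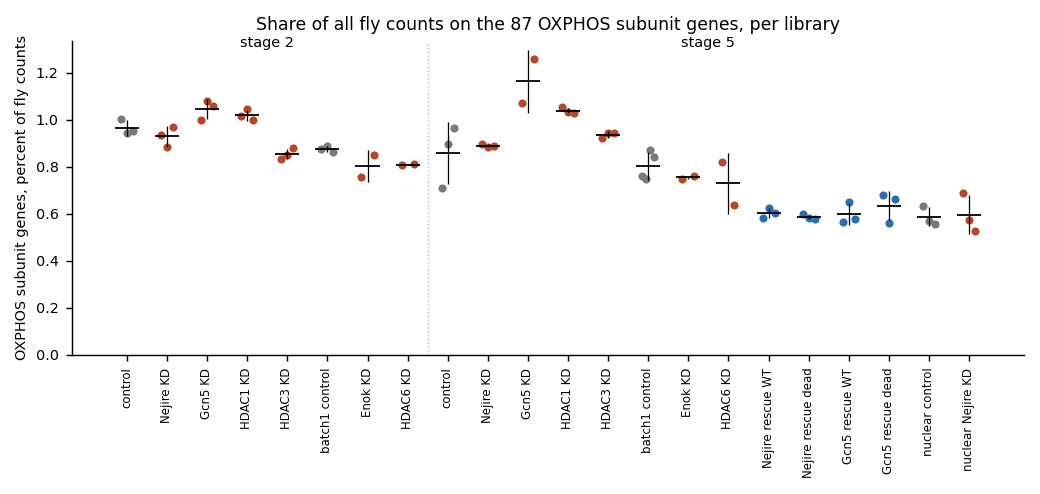
Share of each library's fly counts that fell on the 87 oxidative phosphorylation genes, in percent, by group. Points are libraries, bars the group mean and lines the SD. The rescue and nuclear groups have the lowest means, from 0.587% to 0.634%, and the Gcn5 knockdown at stage 5 the highest mean, of 2 libraries at 1.07% and 1.26%.

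Per kilobase of exon, and averaged over the 20 total RNA groups, the most abundant transcript was ATPsynC, the subunit that forms the rotating ring of ATP synthase, at 497.5 CPM per kb. ATPsynbeta, the catalytic subunit, followed at 458, then ND-MLRQ at 378.5, ATPsynO (the stalk protein OSCP) at 310.4 and the complex IV subunit COX7B at 275. Members of 1 complex could thus differ widely in transcript level, and the order changed with stage. ATPsynC stood at 1287, 1367 and 1448 CPM in the 3 main controls of stage 2 and at 607, 618 and 603 CPM at stage 5, while ATPsynbeta stood at 1411 to 1549 CPM at stage 2 and at 1117 to 1282 CPM at stage 5. Over the group means, and leaving out L-named genes, whose lowest group mean could be 0, UQCR-6.4, a small complex III subunit, had the widest range (38.45-fold), followed by the complex IV subunit COX7A (24.8-fold) and UQCR-C2, a core protein of complex III (15.0-fold). For ATPsynC the same range was 2.97-fold, for ATPsynbeta 3.12-fold and for ATPsynO 1.99-fold. The lowest means of UQCR-6.4, COX7A, ATPsynbeta and ATPsynO were in rescue groups, which were of other crosses without controls of their own. Their library names also open with other date-like codes than those of the main set. UQCR-6.4 ran from 2.72 CPM (Gcn5 rescue, wild type) to 104.7 CPM (main controls, stage 2). COX7A ran from 17.5 CPM (Nejire rescue, catalytic dead) to 433.5 CPM (Gcn5 knockdown, stage 2). UQCR-C2 and ATPsynC were lowest in the Nejire knockdown at stage 5.

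**Figure D2:**
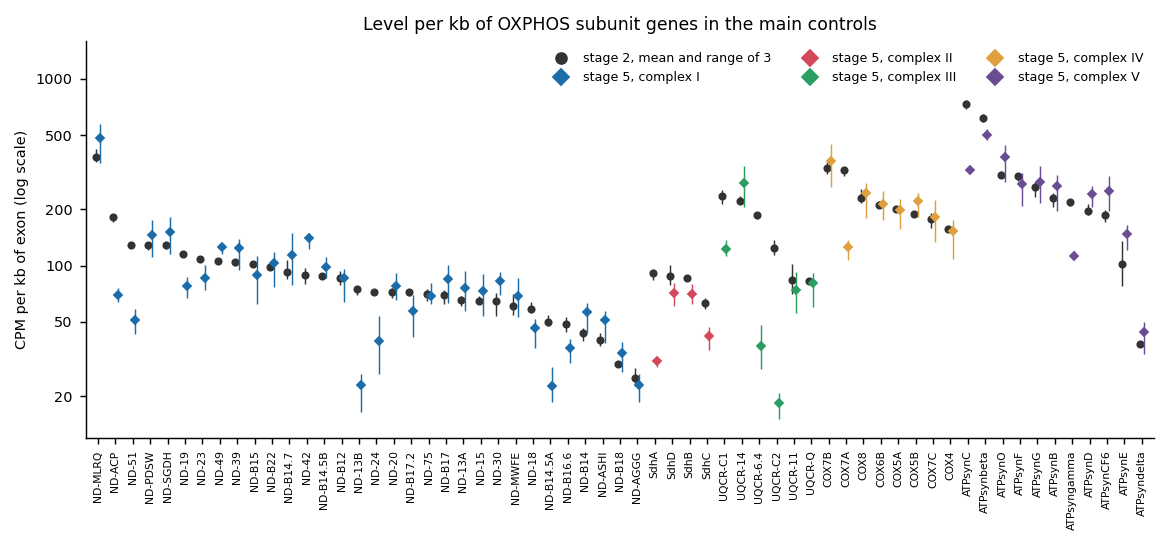
Level of each member per kilobase of exon (CPM per kb, log axis) in main controls at stage 2 (black circles) and stage 5 (diamonds coloured by complex), with the mean and range of 3 libraries, for members at 1 CPM per kb or more at both stages. ATPsynC and ATPsynbeta stand highest, and UQCR-C2 and UQCR-6.4 show the widest gap between stages.

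Between stage 2 and stage 5, in which maternal mRNA is cleared and zygotic transcription begins, individual subunits of the same complex moved in opposite directions. In main controls 25 of 63 tested members rose and 14 fell, with a median log2 fold change of 0.27, against 42.5% of all tested genes rising and 37.3% falling and a median of 0.15. In batch1 controls 43 of 65 rose and 12 fell (median 0.61), against 48.9% and 38.3% of all genes (median 0.27). The control sets share no library. All 25 members that rose in the main set also rose in batch1 (58.1% of the batch1 rises), and 11 members fell in both (78.6% of the main and 91.7% of the batch1 falls). None was called in opposite directions.

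With every library put on one scale, which lowers stage 5 against stage 2 for all genes alike and so by construction favours falls over small rises, the 11 shared falls were all kept, and of the 25 shared rises 5 were: ATPsynCF6, ATPsynE, ND-42, ND-51L1 and SdhBL. On that scale 5 members rose and 17 fell in main controls (median log2 fold change 0.025, all genes -0.10), and 29 rose and 19 fell in batch1 (0.25, all genes -0.09). Without the second main control of stage 2, 13 members rose and 12 fell, and without the first main control of stage 5, 42 rose and 12 fell. Folds given next come from fits scaled within each set.

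In complex III, UQCR-C2 (3L:16584124-16586111, + strand, in the Ensembl annotation of assembly BDGP6, the assembly of dm6) stood at 191, 211 and 231 CPM in main controls of stage 2 and at 25.7, 35.03 and 32.8 CPM at stage 5. It fell by 2.51 ± 0.15 on the log2 scale (± SE; adjusted p = 4.25e-07), and in batch1 by 1.55 ± 0.11. Every stage 5 control library lay below every stage 2 one. UQCR-6.4 went from 108, 106 and 99.4 to 15.7, 20.2 and 26.99 CPM, and fell by 2.12 ± 0.17 in main controls (adjusted p = 3.74e-06) and by 1.66 ± 0.15 in batch1. UQCR-C1, the partner core protein of UQCR-C2, fell less, by 0.70 ± 0.12 and 0.53 ± 0.09. UQCR-14 rose in both sets (0.55 ± 0.17 and 1.05 ± 0.10). The strand limit given above holds for UQCR-14 and UQCR-6.4 alike, here and below. Of the 6 tested complex III subunits without an L name, 1 rose and 3 fell in main controls, and 2 rose and 3 fell in batch1.

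In complex II the catalytic subunits also differed from each other. SdhA, the flavoprotein that oxidises succinate, went from 232, 265 and 257 CPM at stage 2 to 87.5, 87.6 and 79.4 CPM at stage 5 and fell by 1.31 ± 0.11 (adjusted p = 3.67e-06), and in batch1 by 1.50 ± 0.10. Its partner SdhB, the iron-sulfur subunit, stood at 104, 105 and 107 and 76.3, 97.2 and 85.99 CPM, with a log2 fold change of -0.03 ± 0.12 (adjusted p = 0.813) in main controls and a called fall of 0.24 ± 0.10 in batch1. On the CPM scale shared by all libraries the stages lay apart for both genes in the main set, and within the set only SdhA passed the test. SdhC, a membrane anchor, fell in main controls alone, by 0.34 ± 0.13.

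Complex I divided within itself. ND-51, the subunit that binds FMN and takes electrons from NADH (2L:6060842-6062757, - strand), went from 211, 210.0 and 197 to 68.2, 84.1 and 92.9 CPM in main controls and fell by 1.09 ± 0.13 (adjusted p = 4.78e-05), and by 1.26 ± 0.10 in batch1. The accessory subunits ND-13B and ND-B14.5A fell by 1.47 ± 0.18 and 0.93 ± 0.17 in main controls, and ND-ACP, the acyl carrier protein, by 1.16 ± 0.12. In batch1 these 3 fell by 0.72 ± 0.16, 0.62 ± 0.16 and 0.95 ± 0.12. ND-42, an accessory subunit, moved the other way, from 129, 157 and 149 CPM at stage 2 to 199.6, 241 and 242 CPM at stage 5, a rise of 0.90 ± 0.12 in main controls (adjusted p = 0.000116) and 1.08 ± 0.09 in batch1. No stage 5 control library reached down to the stage 2 range of ND-42. ND-75, the largest core subunit, was not called in either set (0.22 ± 0.13 and 0.15 ± 0.09), but on one scale its batch1 value was -0.21 and called (adjusted p = 0.0485). Over the 32 tested genes of complex I without an L name, 15 rose and 6 fell in main controls, and 22 rose and 4 fell in batch1.

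In complex IV, COX7A (3R:8339944-8341043, - strand) went from 234, 233 and 210.4 to 74.6, 95.7 and 94.1 CPM and fell by 1.11 ± 0.13 in main controls (adjusted p = 3.51e-05) and by 0.98 ± 0.10 in batch1, the only fall among 8 tested subunits in either set. One complex IV subunit, COX5B, rose in main controls (0.47 ± 0.13) and 7 did in batch1, among them COX4 (0.62 ± 0.09) and COX5A (0.49 ± 0.11). In the main set COX4 and COX5A had log2 fold changes of 0.20 ± 0.17 (adjusted p = 0.303) and 0.24 ± 0.15 (adjusted p = 0.151).

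In ATP synthase the ring subunit ATPsynC fell by 0.92 ± 0.11 in main controls (adjusted p = 4.45e-05) and 0.88 ± 0.08 in batch1, and ATPsyngamma, the shaft that turns with the ring, by 0.70 ± 0.10 and 0.86 ± 0.10. ATPsynCF6, a peripheral stalk subunit, stood at 121, 134 and 141 CPM at stage 2 and 138, 182 and 214 CPM at stage 5 in main controls, where the groups overlapped; its rises were 0.67 ± 0.16 and, in batch1, 0.72 ± 0.10. ATPsynE, a small membrane subunit, rose by 0.77 ± 0.21 and 0.64 ± 0.11, and ATPsynO by 0.57 ± 0.17 and 0.95 ± 0.09. ATPsynbeta was not called in either set, with -0.06 ± 0.11 and 0.06 ± 0.08; on one scale its batch1 value was -0.30 and called (adjusted p = 0.00274).

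**Figure D3:**
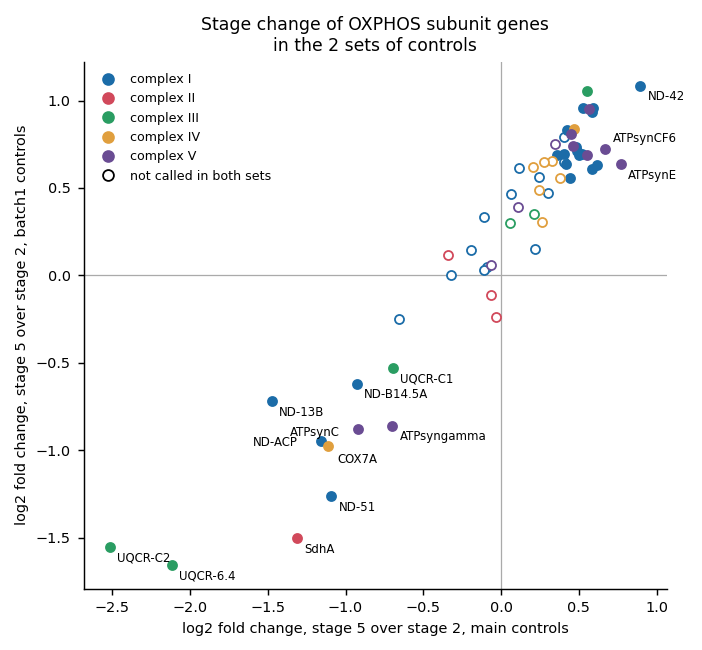
Log2 fold change of each member from stage 2 to stage 5 in main controls (horizontal) and batch1 controls (vertical), coloured by complex; ND-51L1 and SdhBL lie beyond the axes. Filled points were called the same way in both sets and labelled ones also with all libraries on one scale. The 11 shared falls lie in the lower left, led by UQCR-C2 and UQCR-6.4.

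Paralogs with an L name were at or near 0 at stage 2, and a few were present at stage 5. ND-51L1, a duplicate of ND-51, stood at 23.6, 23.99 and 25.1 CPM in main controls and 19.5, 31.2, 23.8 and 18.9 CPM in batch1 controls at stage 5. It had 1 count over the 3 main controls of stage 2 against 405 over those of stage 5, a ratio of 1110 with an exact 95% counting interval of 198 to 43900. In batch1 it had 0 against 979 counts and was at least 194-fold higher at stage 5, taking 3 counts over the group as the floor. The stages did not overlap for ND-51L1, and its parent ND-51 moved the other way, to 68.2 to 92.9 CPM in main controls.

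SdhBL, a duplicate of SdhB, went from 0 to 41 counts in main controls and from 0 to 172 in batch1, at least 37.4-fold and 34.1-fold higher. SdhAL was at least 27.4-fold and 10.5-fold higher, COX4L at least 5.48-fold and 4.37-fold, and ND-51L2 at least 12.8-fold in main controls, with 3 against 109 counts in batch1 (21.6-fold, interval 7.21 to 107). COX7CL had 4 against 20 counts in main controls (13.7-fold, interval 4.59 to 55.1) and 2 against 44 in batch1 (13.1-fold, 3.42 to 112). COX5BL had 1 against 6 in main controls (16.4-fold, 1.99 to 756) and 1 against 35 in batch1 (20.8-fold, 3.5 to 846). UQCR-11L had 0 against 17 counts in batch1, at least 3.37-fold higher at stage 5, and 1 against 1 in main controls. ATPsynbetaL had 0 against 11 counts in batch1, at least 2.18-fold higher, and 0 against 3 in main controls, which gives no fold. COX7AL, ATPsynepsilonL and UQCR-6.4L had at most 8 counts over any control group, and SdhCL, ATPsynGL, COX7AL2, COX6AL, ND-B14.5AL and ND-49L at most 7 in any total RNA library, so no change could be read from these 9 in controls. All L-named genes together took 3.8e-05% of counts at stage 2 and 0.00324% at stage 5 in main controls. Of 10 testis marker genes 1 was tested, and it rose in both sets (log2 fold change 0.47 in main and 0.94 in batch1 controls). The part of testis-type transcripts in the paralog levels was not tested.

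**Figure D4:**
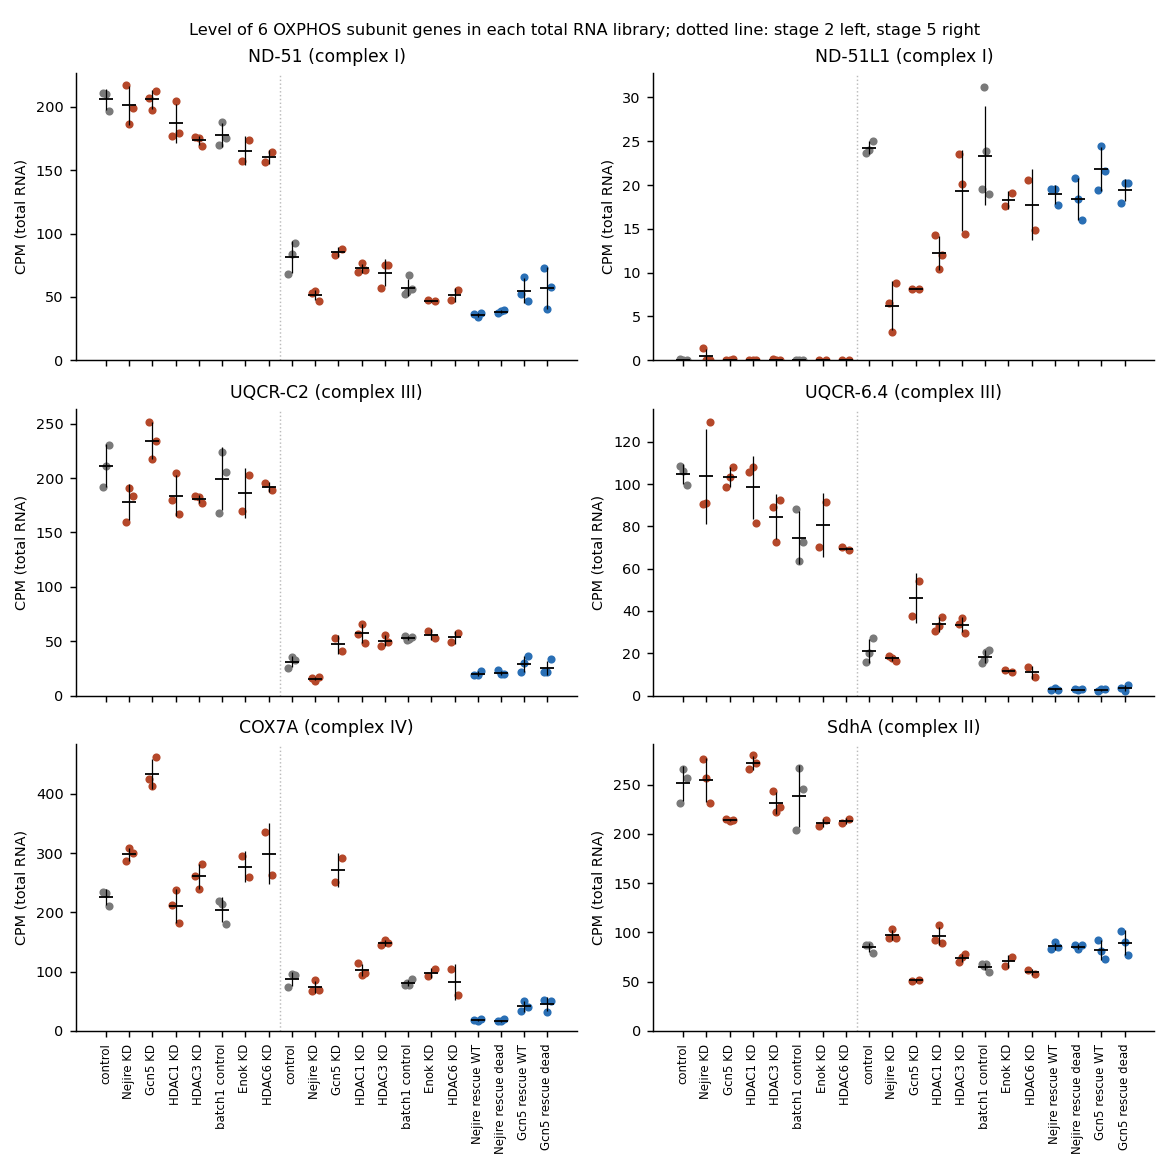
CPM in every total RNA library, by group, for ND-51, its paralog ND-51L1, UQCR-C2, UQCR-6.4, COX7A and SdhA. ND-51L1 is near 0 at stage 2 and between about 3 and 31 CPM at stage 5, while the other 5 are lower at stage 5 than at stage 2 in both control sets.

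Depletion of Nejire, the fly CBP acetyltransferase, left most subunit genes uncalled at stage 5. Of 68 tested members 5 rose and 8 fell (median log2 fold change 0.12), against 16.1% of all genes rising and 21.9% falling. ND-51L1, at 23.6, 23.99 and 25.1 CPM in controls, stood at 6.57, 3.22 and 8.76 CPM in the knockdown, a fall of 1.94 ± 0.26 (adjusted p = 1.34e-05). SdhBL went from 2.53, 2.28 and 2.70 to 0.416, 1.07 and 0.662 CPM and fell by 1.88 ± 0.47, and SdhAL, at 1.01 to 2.28 CPM in controls and 0 to 0.536 CPM in the knockdown, also fell. In none of these 3 paralogs did a knockdown library reach the controls. The panel of 8 zygotic genes fell in 8 of 8 members in the same comparison (median -2.12).

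Of the other subunits, UQCR-C2 went from 25.7, 35.03 and 32.8 to 15.97, 13.8 and 17.2 CPM in the Nejire knockdown and fell by 0.98 ± 0.17 (adjusted p = 0.000171). ND-51 stood at 52.8, 54.7 and 46.6 CPM against 68.2, 84.1 and 92.9 and fell by 0.65 ± 0.13. ND-13B, ATPsynC and UQCR-C1 fell by 0.67 ± 0.21, 0.30 ± 0.11 and 0.28 ± 0.10. For UQCR-C2 and ND-51 all 3 knockdown libraries lay below the controls. SdhB rose, from 76.3, 97.2 and 85.99 to 119, 119 and 125 CPM (0.49 ± 0.11, adjusted p = 0.00249), as did SdhD, the other membrane anchor of complex II (0.43 ± 0.15), and the complex I subunits ND-AGGG (0.71 ± 0.21) and ND-B16.6 (0.49 ± 0.15). ATPsynbetaL was called higher, at 0.894 to 2.48 CPM against 0 to 0.360 CPM in controls. UQCR-C2, ND-51L1, SdhBL and SdhB kept their call in every alternative run. Without the first Nejire library 2 members rose and 6 fell, and with batch1 controls in place of the main ones 25 rose and 7 fell. Transcripts of 4 pole cell genes summed to 607 to 862 CPM in the Nejire knockdown and 262 to 561 CPM in its controls, and their part in these results was not tested.

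Under the reported settings the Gcn5 knockdown had the largest number of rises at stage 5. With the gene length trend removed, and rises and falls counted together, fewer members were called for Gcn5 than for Nejire. Gcn5 is the acetyltransferase of the SAGA and ATAC complexes. Of 68 tested members 37 rose and 3 fell (median log2 fold change 0.42), against 27.4% and 24.3% of all genes (median 0.08). The rises spread over the complexes: without L names, 20 of complex I, 2 of complex II, 5 of complex III, 5 of complex IV and 3 of complex V. COX7A went from 74.6, 95.7 and 94.1 CPM in controls to 251 and 292 CPM, a rise of 1.69 ± 0.13 (adjusted p = 1.18e-07). ND-13B went from 9.79, 15.5 and 15.8 to 35.97 and 44.9 CPM (1.65 ± 0.21), and UQCR-6.4 from 15.7, 20.2 and 26.99 to 37.6 and 54.3 CPM (1.24 ± 0.20). In all 3 genes both knockdown libraries lay above every control.

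Smaller rises in the Gcn5 knockdown included ND-AGGG (0.99 ± 0.23), the ATP synthase subunits ATPsynF (0.79 ± 0.14) and ATPsynE (0.71 ± 0.14), ND-B15 (0.67 ± 0.20), UQCR-11, the hinge protein of complex III (0.67 ± 0.18), UQCR-C2 (0.66 ± 0.17), SdhB (0.44 ± 0.12) and COX4 (0.41 ± 0.16). SdhA was lower, at 50.5 and 52.1 CPM against 87.5, 87.6 and 79.4, a fall of 0.67 ± 0.12 (adjusted p = 0.000289). ND-75 fell by 0.44 ± 0.13 and ND-51L1 by 1.51 ± 0.29, with 8.17 and 8.08 CPM in the knockdown libraries. The paralog SdhBL rose (1.43 ± 0.38).

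The number of rises after Gcn5 depletion varied with the libraries and with the treatment of gene length. Without the second knockdown library 10 members rose, and without the first control 22 did. With the trend over gene length removed 12 rose and 5 fell. Over all genes the fold change was lower for longer exons (Spearman rho -0.332, a description across 8170 genes of the same libraries), and the members are short. The trend was not particular to Gcn5. At stage 5 rho was -0.308 for HDAC3, -0.179 for HDAC1 and -0.0983 for Nejire. At stage 2 it was -0.289 for Gcn5, -0.206 for HDAC1, 0.114 for HDAC3 and 0.254 for Nejire. For the interactions it was -0.335 for HDAC3, -0.282 for Gcn5, -0.154 for Nejire and -0.151 for HDAC1. Among stage 5 main controls the level rose with exon length most in the first (slope 0.192 log2 per doubling, against 0.0566 and 0.0225). After Gcn5 depletion, rises of UQCR-6.4, ATPsynF, COX7AL, COX7A and ND-13B and falls of ND-51L1 and SdhA were called in every alternative. UQCR-C2 had a log2 value of -0.11 (adjusted p = 0.534) against batch1 controls. Transcripts of 10 follicle cell and eggshell genes summed to 109 and 6.06 CPM in the 2 knockdown libraries and 0.169 to 1.32 CPM in their controls, and 2 of 10 were tested and rose. The 4 pole cell genes summed to 93.4 to 99.7 CPM, against 262 to 561 CPM in main and 82.9 to 95.3 CPM in batch1 controls. The part of either in the subunit levels was not tested.

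With HDAC1 depleted, 20 of 68 tested members rose at stage 5 and 4 fell (median log2 fold change 0.21), against 27.5% and 28.5% of all genes. UQCR-C2 went from 25.7, 35.03 and 32.8 to 56.7, 66.2 and 48.5 CPM, a rise of 0.86 ± 0.16 (adjusted p = 0.00018), with all 3 knockdown libraries above the main controls. Batch1 controls, at 50.96 to 55.1 CPM, lay within the range of the knockdown, and against them its log2 value was 0.11 and not called. ND-AGGG, UQCR-6.4, ND-B15 and ND-B17.2 rose by 0.97 ± 0.21, 0.71 ± 0.19, 0.57 ± 0.18 and 0.56 ± 0.15. The paralogs divided: SdhBL rose (1.32 ± 0.36), with 7.48, 5.06 and 5.84 CPM in the knockdown, and COX7AL was called higher, with 2.06, 1.69 and 1.82 CPM against 0.120 to 0.386 CPM in controls. ND-51L1 fell by 0.97 ± 0.25, with 14.3, 10.4 and 12.04 CPM in the knockdown. ND-75 went from 163, 212 and 168 to 129.5, 139.7 and 117 CPM and fell by 0.51 ± 0.11, ATPsyngamma by 0.41 ± 0.10 and SdhD by 0.41 ± 0.16. ND-B17.2, UQCR-6.4, COX7AL and ND-AGGG rose, and ND-75 and ND-51L1 fell, in every alternative. Without the first control 7 members rose. Against batch1 controls ATPsyngamma (0.066) and SdhD (0.081) had values above 0.

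With HDAC3 depleted 9 members rose and none fell by edgeR's test (median 0.20), against 14.5% and 20.4% of all genes; 18 had an unadjusted p under 0.05, and DESeq2 called 12 higher and 1 lower. COX7A went from 74.6, 95.7 and 94.1 to 144, 154 and 148 CPM and rose by 0.76 ± 0.12 (adjusted p = 0.000203). UQCR-6.4, UQCR-C2, ND-B17.2 and SdhC rose by 0.70 ± 0.19, 0.69 ± 0.16, 0.61 ± 0.15 and 0.52 ± 0.14, and UQCR-Q, ND-19, COX5A and the core subunit ND-20 by 0.43, 0.39, 0.37 and 0.30. COX7A and ND-B17.2 were called in every alternative. UQCR-C2 had a value of -0.049 against batch1 controls, whose own level was 50.96 to 55.1 CPM, above the 25.7 to 35.03 CPM of the main controls. Without the second control 15 members rose, and without the third control 17 did, while without the first control 5 rose and 2 fell and without the second HDAC3 library 6 rose. The pole cell genes summed to 84.8 to 97.4 CPM with HDAC1 depleted and 80.9 to 138 CPM with HDAC3 depleted, and the part of this in the subunit levels was not tested.

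Few members were called after Enok or HDAC6 depletion at stage 5, in groups of 2. With Enok depleted none of 66 rose and 1 fell, against 1.35% and 2.61% of all genes; 8 had an unadjusted p under 0.05, and DESeq2 called 1 in each direction. The fall was ATPsynbeta, at 753 and 795 CPM against 994, 1040, 1183 and 1090 CPM in controls, by 0.46 ± 0.10 (adjusted p = 0.0249), and it was not called without either Enok library or without the fourth control. With HDAC6 depleted edgeR and DESeq2 called none of 66, against 0.833% and 0.588% of all genes, and 4 had an unadjusted p under 0.05. The members' share of counts was 0.82% and 0.637% in the 2 HDAC6 libraries. Without the first of them 25 members were called lower, and without the second 1 was called higher.

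**Figure D5:**
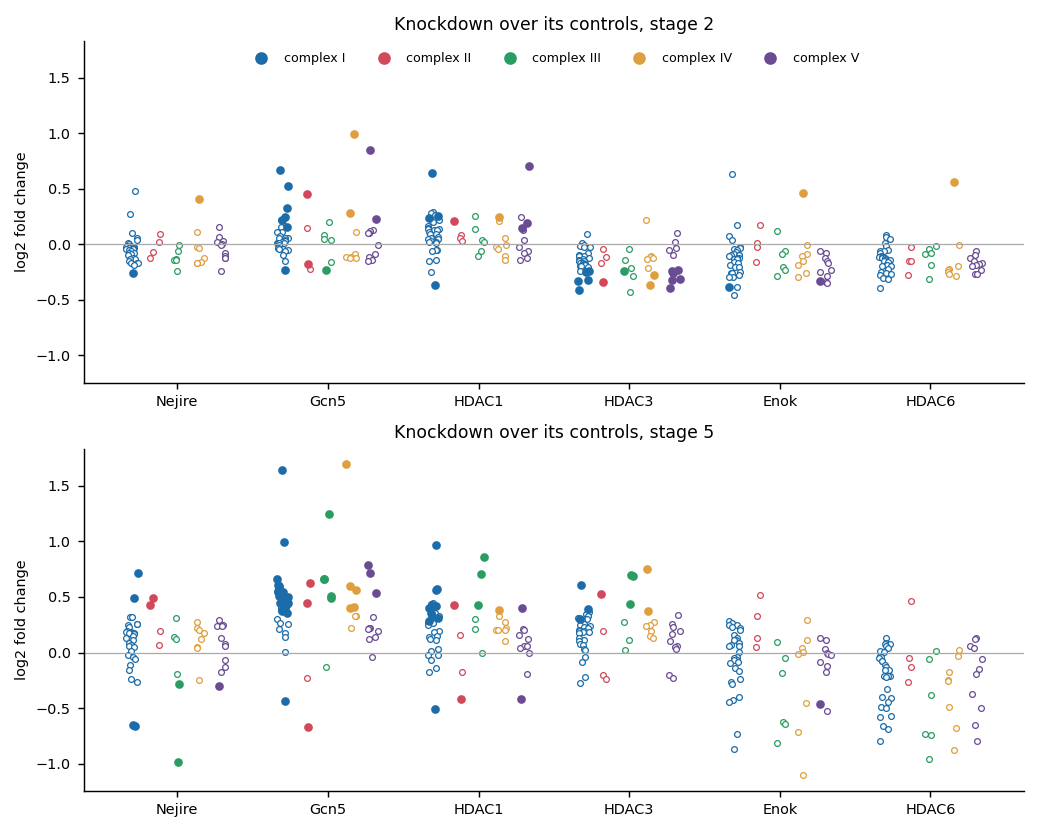
Log2 fold change of each member without an L name in the 6 knockdowns, each over its own controls, at stage 2 and stage 5, coloured by complex, with called members filled. At stage 5 the Gcn5 points are mostly above 0, with COX7A and ND-13B highest, and at stage 2 the called HDAC3 points are all below 0.

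At stage 2, before most zygotic transcription, between 1 and 15 of the 61 tested members were called in each knockdown. Nejire depletion changed 2 of 61 (1 up, 1 down, against 5.32% and 4.8% of all genes). Gcn5 depletion raised 11 and lowered 3 (19.2% and 17.6%), and HDAC1 depletion raised 8 and lowered 1 (8.72% and 7.2%). HDAC3 depletion raised none by edgeR or DESeq2 and lowered 15 (8.76% and 8.85%), with 26 at an unadjusted p under 0.05 and a DESeq2 count of 16 lower. Enok depletion raised 1 and lowered 2 (2.16% and 3.18%), and HDAC6 depletion raised 1 and lowered none (2.51% and 0.657%). With HDAC6 depleted 14 members had an unadjusted p under 0.05, and DESeq2 also called 1 higher and none lower.

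COX7A was called higher at stage 2 in 4 of the 6 knockdowns. It stood at 234, 233 and 210.4 CPM in main controls, at 426, 413 and 462 CPM with Gcn5 depleted (1.00 ± 0.08, adjusted p = 1.81e-07) and at 286, 308 and 300.2 CPM with Nejire depleted (0.41 ± 0.08). In batch1 it stood at 219, 214 and 180.3 CPM in controls, 296 and 259 CPM with Enok depleted (0.46 ± 0.12) and 336 and 262 CPM with HDAC6 depleted (0.56 ± 0.12). With HDAC1 depleted it stood at 216, 234 and 188 CPM, overlapping the controls (log2 fold change -0.0042, adjusted p = 0.982), and with HDAC3 depleted at 245, 239 and 262 CPM, above them but not called (0.22 ± 0.08, adjusted p = 0.0882). In each of the 4 called comparisons every knockdown library lay above every control of its set, and the comparisons within a set share their controls. In the main set both calls held in every alternative. The HDAC6 call was lost without the second or the third batch1 control or the first HDAC6 library, and the Enok call without either Enok library, without the same controls, and on one scale.

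Other rises at stage 2 after Gcn5 depletion were ATPsynE (0.84 ± 0.15), ND-AGGG (0.67 ± 0.17), the core complex I subunit ND-30 (0.53 ± 0.12) and SdhB (0.46 ± 0.06), and UQCR-C1 fell by 0.23 ± 0.06; these 5 held in every alternative. After HDAC1 depletion ATPsynE (0.71 ± 0.16) and ND-AGGG (0.64 ± 0.18) rose and ND-B14.5B fell by 0.37 ± 0.10, and only ATPsynE was called in every alternative. At stage 2 the alternatives did not include batch1 controls in place of the main ones. Scaled within each set, ATPsynE stood at 56.2, 61.8 and 91.7 CPM in main and 93.2, 110.2 and 92.4 CPM in batch1 controls. It stood at 109.1 to 124 CPM with HDAC1 depleted and 117 to 133.5 CPM with Gcn5 depleted. With HDAC3 depleted, ATPsynbeta went from 1411, 1549 and 1484 to 1143, 1034 and 1193 CPM and fell by 0.39 ± 0.05 (adjusted p = 7.85e-06), ND-B18 by 0.41 ± 0.09 and COX8 by 0.37 ± 0.10. Falls of ATPsynbeta, ATPsynO, ATPsyngamma, ND-B18, UQCR-C1 and ND-49 held in every HDAC3 alternative. Without the first control 8 members fell. ND-24 fell by 0.26 ± 0.07 with Nejire depleted, and ATPsynbeta and ND-15 by 0.33 ± 0.08 and 0.38 ± 0.09 with Enok depleted.

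Whether a knockdown acted differently at the stages was tested as an interaction within the main set. For Gcn5 21 of 70 members had a higher and 2 a lower fold change at stage 5 than at stage 2, against 13.7% and 18.3% of all genes. For HDAC3 these counts were 16 and none (8.05% and 14.7%), for HDAC1 7 and none (18.8% and 18.6%), and for Nejire 3 and 4 (8.88% and 11.2%). An unadjusted p under 0.05 was reached by 32 members for Gcn5, 27 for HDAC3, 15 for HDAC1 and 14 for Nejire. DESeq2 called 39 higher and 1 lower for Gcn5, 43 and none for HDAC3, 17 and none for HDAC1, and none higher and 9 lower for Nejire. The complex III genes carried the widest differences for the deacetylases: UQCR-C2 by 1.06 ± 0.18 for HDAC1 and 0.92 ± 0.18 for HDAC3, and UQCR-6.4 by 0.80 ± 0.23 and 1.01 ± 0.23. For Gcn5 they were ND-13B (1.32 ± 0.23) and UQCR-6.4 (1.21 ± 0.24). For Nejire the difference was negative for ND-51 (-0.63 ± 0.15), COX7A (-0.66 ± 0.16) and UQCR-C2 (-0.74 ± 0.19). These genes held in every alternative, but for interactions the alternatives did not include batch1 controls in place of the main ones. Against batch1 controls the stage 5 value of UQCR-C2 was -0.049 for HDAC3, and it was not called for HDAC1 or HDAC3. With the first control of stage 5 left out, 8 members were higher for Gcn5, 2 for HDAC1 and 5 for HDAC3. With the third left out 20 were higher for HDAC1 and 27 for HDAC3, and without the second Gcn5 library of stage 5 5 were higher for Gcn5.

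In nuclear RNA at stage 5, scaled to the spike-in, none of 70 tested members rose and 1 fell after Nejire depletion (median log2 fold change -0.47), against 3.52% and 9.91% of all genes; 5 had an unadjusted p under 0.05, and DESeq2 called none higher and 2 lower. The fall was ND-51L1, at 77.8, 107 and 73.4 CPM in controls and 6.07, 10.6 and 28.8 CPM in the knockdown, by 2.51 ± 0.80 (adjusted p = 0.0178), and it was lost in 6 of 11 alternatives. The targeted gene nej was lower but not called on this scale (log2 fold change -2.45, adjusted p = 0.0637). The knockdown libraries disagreed in scale. The third had 69.5 ERCC counts per M fly counts, the first and second 282 and 284, and controls 98.5, 100 and 134. Summed over the members the levels were 3255, 3934 and 12220 CPM in the knockdown and 6750 to 10390 CPM in controls. Without the third library 62 members fell, and with TMM scaling on fly genes 7 rose and 16 fell. As a share of fly counts, which does not use the spike-in, the members took 0.588% ± 0.0406 (SD, n = 3) in controls and 0.595% ± 0.0824 (n = 3) in the knockdown.

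Embryos of a knockdown given wild-type protein were compared with those given catalytic-dead protein. Each rescue group had its own cross, so the protein given and its line cannot be told apart. Gcn5 stood at 6145 to 8196 CPM with wild-type and 5867 to 7310 CPM with catalytic-dead Gcn5, against 206 to 253 CPM in main controls of stage 5. In the Nejire rescues nej stood at 2930 to 3511 and 2950 to 3146 CPM, and in the Gcn5 rescues at 1673 to 2237 CPM. Main controls of stage 5 held 681 to 1508 CPM of nej. For Nejire, none of 67 tested members was higher and 1 was lower with wild-type protein, against 0.16% and 0.0983% of all genes; 6 had an unadjusted p under 0.05, and DESeq2 called none higher and 1 lower. This was ND-B16.6, a complex I subunit, at 16.7, 16.7 and 15.8 CPM with wild-type and 31.7, 30.9 and 30.4 CPM with catalytic-dead Nejire, by 0.93 ± 0.10 (adjusted p = 0.00147), called in every alternative. For Gcn5 edgeR and DESeq2 called none of 67 in either direction, where 0% of all genes were called each way, and no member had an unadjusted p under 0.05. The Gcn5 rescue libraries differed within each group: the members took 0.566%, 0.652% and 0.577% of counts with wild-type Gcn5 and 0.678%, 0.562% and 0.661% with catalytic-dead Gcn5, so that the second library of each group lay with the other group. All 4 rescue groups had low COX7A (16.4 to 52.5 CPM) and UQCR-6.4 (2.13 to 5.03 CPM), below the 74.6 to 95.7 and 15.7 to 26.99 CPM of main controls at stage 5. These groups were of other crosses, and their library names open with other date-like codes than those of main controls. They had no control sample of their own, so this difference was not tested. Cross and library set cannot be told apart here.

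Some nuclear-encoded subunits and carriers have names outside the rule. Of 8 such genes, 3 rose and none fell by edgeR between stages in main controls (median 0.28; 42.5% and 37.3% of all genes), and 5 rose and 1 fell in batch1 (median 0.45; 48.9% and 38.3%). Cyt-c1, the cytochrome subunit of complex III, rose by 0.76 ± 0.14 and 0.93 ± 0.08, Cyt-c-p, the cytochrome c that links complexes III and IV, by 0.50 ± 0.14 and 0.92 ± 0.10, and the complex IV subunit cype by 0.58 ± 0.20 and 1.00 ± 0.12. In batch1 blw, the alpha subunit of ATP synthase, fell by 0.54 ± 0.08. Complex III thus held falling core proteins and a rising cytochrome subunit in both control sets. After Gcn5 depletion at stage 5, 3 of the 8 rose and none fell (median 0.38), against 27.4% and 24.3% of all genes.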

How the data were processed

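Total and nuclear RNA were turned into libraries by tagmentation, per the labels' protocols. The authors deposited raw gene counts, which carry no normalisation. The submitters' processing notes name bcl2fastq 2.20.0.422 and the build dm6, and the sources used here do not state the aligner, the counter, the annotation release or the strand setting. Of 17753 gene identifiers 99.3% matched the Ensembl annotation, which gave exon lengths and overlaps.

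Low genes were removed by filterByExpr with 10 counts and 15 in total. The test was the quasi-likelihood F test of edgeR 4.0.16 (R 4.3.3) after TMM scaling, with p adjusted by Benjamini-Hochberg over all tested genes and called under 0.05. The 5 main groups of a stage shared a fit, as did the 3 of batch1; stage, rescue and nuclear comparisons had their own, and interactions were fitted over both stages. Nuclear size factors were the ERCC sums. The SE is the log2 fold change over the root of F. Alternatives were RLE scaling, no filter, DESeq2 1.42.0, a replicate block, removal of the gene length trend, scaling to stable genes and 2 groups alone. Further ones were other controls, at stage 5 only, and each library left out. One scale over all total RNA libraries was added after seeing the data. The fits were tested on simulated data. Named were a panel of 10 members, per comparison the 8 or 3 largest called changes each way at 5 CPM or more, the 5 highest, lowest and most variable members, and the L-named genes. Members and lists were chosen with earlier results of these data known. Nothing says that samples came from separate crosses, so p-values may reflect technical spread only. Floors and counting intervals cover counting error only.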

Additional observations from a re-analysis of the deposited data

Results flagged for a closer look

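In the 4 batch1 controls at stage 5, 1 library stood apart from the other three for 3 of the named members: the third, named CtrlAc-KD, for ND-15 (88.3 CPM) and for ND-B14.7 (88.3 CPM), and the fourth, named Ctrl-KD, for SdhA (60.0 CPM). In all 44 values were tested in this way, and chance flags about 1 in 20.

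The effect of a knockdown at stage 5 differed from that at stage 2 by the interaction test for the following members, as log2 differences. For Nejire they were SdhD (0.55), ND-B14.5B (0.49), SdhB (0.40), ND-51L1 (-5.68), UQCR-C2 (-0.74) and COX7A (-0.66). The ND-51L1 value rests on 1 library: the first Nejire library of stage 2 held 1.33 CPM of it, and without that library the difference was -0.44 and not called. The rises of SdhB, SdhD and ND-B14.5B were called in 6, 5 and 10 of 17 alternatives. For Gcn5 they were ND-13B (1.32), UQCR-6.4 (1.21), UQCR-11 (0.81), SdhA (-0.50) and ND-75 (-0.44), the last called in 7 of 16 alternatives. For HDAC1 they were UQCR-C2 (1.06), UQCR-6.4 (0.80) and ND-B15 (0.60), and for HDAC3 UQCR-6.4 (1.01), UQCR-C2 (0.92) and ND-B17.2 (0.74). The 4 knockdowns share their controls at both stages.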

How the results depend on the processing

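Of 143 recounts of called members that left out no library, 104 stayed within 1.5 times the reported number. The others follow, as members called in either direction, and for each the cause was not tested. On one scale over all total RNA libraries, the stage comparison of main controls gave 22, Gcn5 at stage 2 9 and HDAC1 at stage 2 4. With the gene length trend removed, Nejire at stage 5 gave 20, Gcn5 17, Enok at stage 2 5, and the interactions 7 for Gcn5 and 4 for HDAC3. Fitted as 2 groups alone, Nejire gave 8 at stage 5 and 1 at stage 2, Gcn5 17, and Enok 10 at stage 5 and 1 at stage 2. With batch1 controls, Nejire gave 32, HDAC1 38 and HDAC3 36 at stage 5, and with scaling to stable genes HDAC1 gave 47 and HDAC3 16. Without the filter, Enok gave 11 and HDAC6 12 at stage 5, Enok 7 and HDAC1 4 at stage 2, and the interactions 38 for Gcn5, 22 for HDAC1 and 32 for HDAC3. With RLE scaling the interactions gave 39, 12 and 36, and with DESeq2 40, 17 and 43. DESeq2 gave 2 for Enok at stage 5 and 2 in nuclear RNA, TMM on fly genes gave 23 there, and 3 named controls gave 0 for Enok.

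Deviations of same-numbered samples from their group means were correlated over the tested genes. Among comparisons of 3 pairs, every correlation was above 0 only for HDAC1 at stage 2 (0.0611, 0.0273 and 0.0482). Where there were fewer pairs, all were above 0 for Gcn5 at stage 5 (0.166 and 0.103) and Enok at stage 2 (0.325 and 0.207). The numbers were not taken as pairing. With the replicate block Enok gave 0 at stage 5 and 8 at stage 2, Nejire 1 at stage 2 and nuclear RNA 0; all other counts stayed within 1.5 times.

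Leaving out 1 library at a time gave 25 to 54 in the stage comparison of main controls and 53 to 56 in batch1. At stage 5 it gave 8 to 17 for Nejire, 13 to 45 for Gcn5, 12 to 30 for HDAC1, 6 to 17 for HDAC3, 0 to 1 for Enok and 0 to 25 for HDAC6. At stage 2 it gave 1 to 3, 8 to 13, 1 to 8, 9 to 15, 0 to 3 and 0 to 1 in the same order. Interactions gave 4 to 11 for Nejire, 6 to 31 for Gcn5, 3 to 20 for HDAC1 and 5 to 27 for HDAC3, nuclear RNA 0 to 62, and the rescues 1 to 1 for Nejire and 0 to 0 for Gcn5. Besides the libraries named above, counts moved by over 1.5 times at stage 2 for Nejire (1 without control 1, control 2 or Nejire 1), Gcn5 (8 without control 2), HDAC1 (4 and 2 without controls 1 and 2, 1 and 5 without HDAC1 libraries 2 and 3) and Enok (0 without control 2 or Enok 1, 1 without control 3). Among interactions this held for Nejire (11 without stage 5 control 3, 4 without stage 2 Nejire 2), Gcn5 (15 and 13 without stage 2 control 1 and Gcn5 1), HDAC1 (4 and 3 without stage 2 control 1 and HDAC1 3) and HDAC3 (10 without stage 2 control 1, 9 without stage 5 or stage 2 HDAC3 2). In nuclear RNA 0 were called without any 1 of the controls or without Nejire 2.

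Values that changed sign were ATPsynbeta (-0.30) and ND-75 (-0.21) between stages in batch1 on one scale, and, with batch1 controls at stage 5, UQCR-C2 for Gcn5 (-0.11) and HDAC3 (-0.0486) and, for HDAC1, ATPsyngamma (0.0663), SdhB (0.25) and SdhD (0.0812). Groups of 2 or 3 and the low counts of L-named genes limit what could be called.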

Other observations

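Genes around the respiratory chain were counted in lists written for this work. Between stages 42.5% of all tested genes rose and 37.3% fell in main controls, and 48.9% and 38.3% in batch1. Of 8 regulators of mitochondrial genes, 1 rose and 4 fell in main controls and 2 rose and 6 fell in batch1. Ets97D, the fly relative of the GABP alpha factor, fell by 3.94 ± 0.17 and 3.71 ± 0.13 on the log2 scale in main and batch1 controls, and srl, the fly PGC-1 coactivator, by 3.90 ± 0.23 and 3.61 ± 0.12. mtSSB, which binds single-stranded mitochondrial DNA, fell by 3.51 ± 0.16 and 2.73 ± 0.15, and ewg, the relative of NRF-1, by 1.05 ± 0.19 and 1.69 ± 0.16. mtTFB2, a mitochondrial transcription factor, rose by 0.78 ± 0.13 and 1.39 ± 0.13. Of 10 tested genes of the TCA cycle 4 rose and 5 fell in each set.

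Glycolytic genes fell between stages in 9 of 11 tested cases in both sets (median log2 fold change -2.02 and -3.20), with 1 rise in each. At stage 5 glycolytic genes fell in 7, 6 and 8 of 11 cases after Gcn5, HDAC1 and HDAC3 depletion, with 1 rise in each, and after Nejire depletion 4 rose and 2 fell. Of all genes 24.3%, 28.5% and 20.4% fell and 27.4%, 27.5% and 14.5% rose after Gcn5, HDAC1 and HDAC3 depletion, and 16.1% rose and 21.9% fell after Nejire depletion. These 4 comparisons share their controls.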
